A study of Mus musculus with 16 samples.

Results

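The 9 genes described here encode metalloproteases that cut the extracellular matrix and the inhibitors that restrain them: the secreted gelatinase Mmp2, the membrane-bound proteases Mmp14 and Mmp15, the tissue inhibitors of metalloproteinases Timp1, Timp2, Timp3 and Timp4, and the secreted proteases Adamts1 and Adamts5. They were chosen by gene symbol, and all 9 of 9 were found among the 23970 symbols of the expression table and passed the filter on low values (11256 genes tested). Quadriceps mRNA was sequenced from 16 male C57BL/6NTac mice aged 16 weeks, in 4 groups of 4. The mice had eaten a control diet (CON) or a high-fat diet (HFD). The pre groups, CON-pre and HFD-pre, were sampled at rest. The post groups, CON-post and HFD-post, were sampled 3 h after a treadmill run to exhaustion. All mice, the pre-exercise animals included, had been acclimatised to the treadmill and fasted. Pre- and post-exercise samples came from different animals. Each library is bulk muscle, so fewer cells of a type and less RNA per cell cannot be told apart.

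Matrix metalloproteinases are made as inactive precursors, held shut by a cysteine in their propeptide, and cut collagens, laminins and other matrix proteins once that propeptide is removed. TIMPs block the zinc site of the active enzymes. The family members are not interchangeable: TIMP2 also bridges MMP14 to pro-MMP2 at the cell surface, so that it takes part in the activation of MMP2, and TIMP3 is held in the matrix and also inhibits ADAM and ADAMTS enzymes. ADAMTS1 and ADAMTS5 cut large proteoglycans such as versican and aggrecan. In skeletal muscle these genes are best known from capillary growth, satellite cell migration and repair.

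The values are FPKM, a fragment number divided by transcript length and by library size, as the authors estimated it with Cufflinks. Levels of different genes can therefore be set side by side. Summed FPKM per library ranged from 283575 to 329282. Relative depth, read from genes with at most 0.5 FPKM, ranged from 0.691 to 1.14 of that of CON-pre replicate 1. All 10 skeletal muscle markers were detected, and their sum was between 48930 and 63930 FPKM. Differences were tested with limma after the transform log2(FPKM + 0.5), with the 4 groups fitted together. A transcript was called where its adjusted p, by the Benjamini-Hochberg method across all 11256 genes, was under 0.05. Fold changes are on the transformed scale, which understates the change of low genes.

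Timp3, Timp2 and Timp4 were the most abundant of these transcripts. Timp3 averaged 45.3 FPKM over the 16 libraries, Timp2 38.6 FPKM and Timp4 20.7 FPKM. Mmp2 averaged 16.1 FPKM and Adamts1 12.5 FPKM. Mmp15 (3.81 FPKM), Mmp14 (3.50 FPKM) and Adamts5 (2.54 FPKM) lay much lower, and Timp1 was the lowest at 1.18 FPKM. Some neighbours in this order were not separated: Timp3 was above Timp2 in 11 of 16 libraries, Timp4 above Mmp2 in 12, Mmp2 above Adamts1 in 11 and Mmp15 above Mmp14 in 12. Timp2 was above Timp4, and Adamts1 above Mmp15, in all 16. The 4 TIMPs together exceeded the 5 proteases in every library, and the ratio of the summed FPKM was between 1.71 and 3.58.

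**Figure D1:**
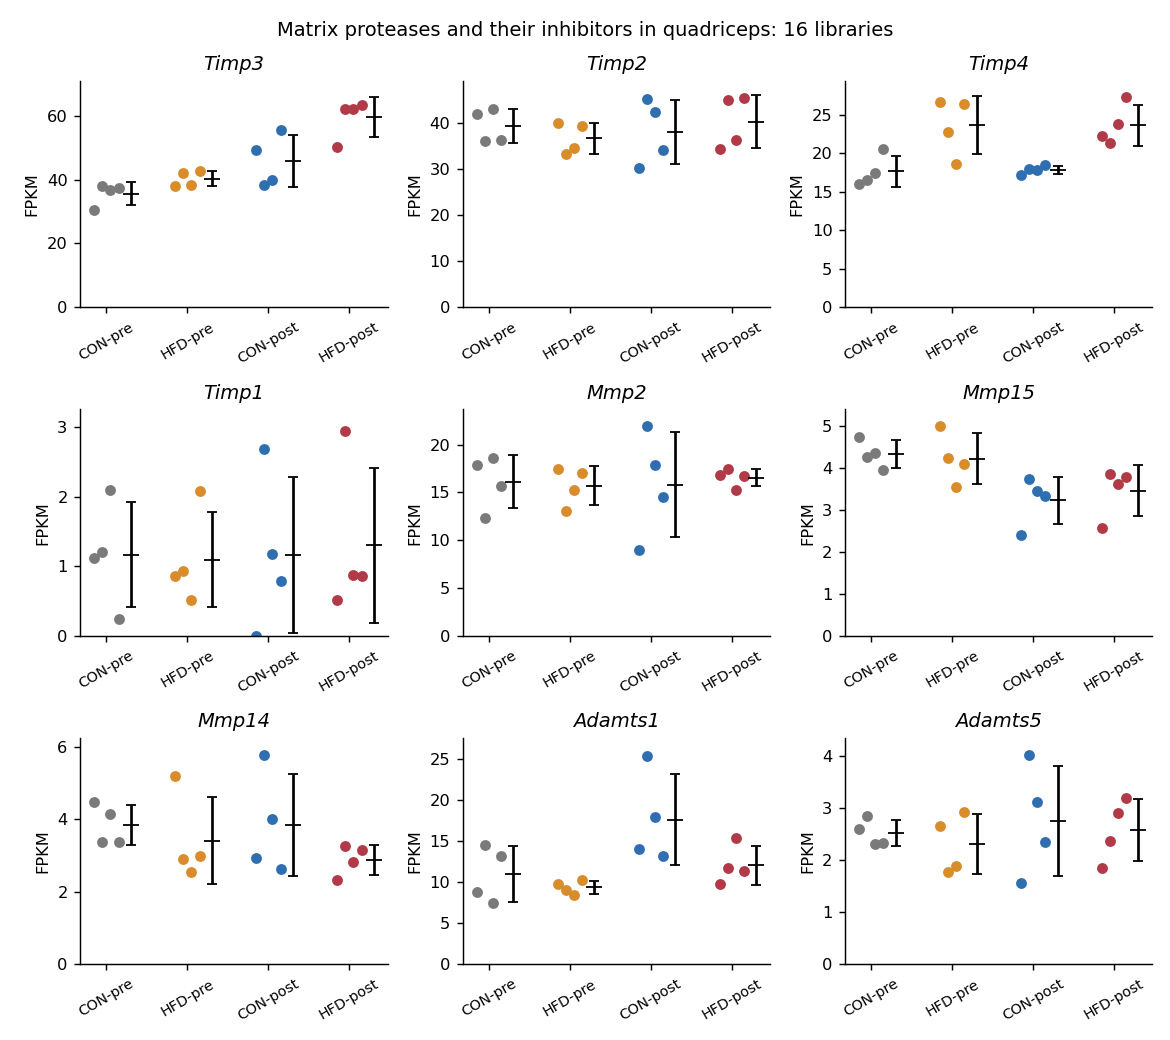
FPKM of the 9 genes (vertical axes from 0) in the 4 groups, with a point for each library and the mean and SD (n = 4) beside the points. Timp3 is highest in HFD-post (50.3 to 63.4 FPKM), Timp4 is higher in the HFD groups, and Timp1 stays at or under 2.95 FPKM.

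The gene positions are from RefSeq GRCm38.p6. Timp3 (chromosome 10, 86300412 to 86349505, plus strand) lies inside the synapsin gene Syn3, Timp4 (chromosome 6, 115244444 to 115252205, minus strand) inside Syn2, and Timp1 (chromosome X, 20870166 to 20874737, plus strand) inside Syn1, each on the strand opposite to its host. The synapsins, which coat synaptic vesicles in neurons, were at most 0.0954 FPKM (Syn3), 0.315 FPKM (Syn2) and 0.0954 FPKM (Syn1) in any library. In the GENCODE M1 annotation, exon intervals were pooled over all transcripts of a gene, so they outnumber the exons of 1 transcript. Of 11 such Timp3 intervals 1 overlapped a Syn3 exon, and 0 of the Timp4 or Timp1 intervals overlapped an exon of their host. The libraries were stranded, but the strand setting of the alignment is not given in the sources used here. The remaining positions are Timp2 at chromosome 11, 118301061 to 118355411, Mmp2 at chromosome 8, 92827290 to 92853421, Mmp15 at chromosome 8, 95352296 to 95374293, and Mmp14 at chromosome 14, 54431598 to 54442456. Adamts1 (chromosome 16, 85793827 to 85803113) and Adamts5 (chromosome 16, 85858157 to 85901125) are neighbours, 55043 bases apart on the minus strand.

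The 250 bases before the start of the 4 genes that the comparisons turn on are given below from RefSeq (GRCm38.p6), in the direction of transcription, because these are the members whose transcript differed at an unadjusted p under 0.05 with exercise or diet. Of the 9 genes, 7 had a promoter entry. Capitals mark the motifs found on either strand: GC box (GGGCGG) and TATA box (TATAAA).
Timp3, chr10:86300162-86300411, plus strand: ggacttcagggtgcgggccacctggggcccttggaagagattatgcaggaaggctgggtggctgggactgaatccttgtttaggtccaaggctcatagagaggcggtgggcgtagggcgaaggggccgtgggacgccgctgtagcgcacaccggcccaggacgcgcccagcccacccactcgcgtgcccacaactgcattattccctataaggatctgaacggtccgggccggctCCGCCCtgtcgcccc
Timp4, chr6:115252206-115252455, minus strand: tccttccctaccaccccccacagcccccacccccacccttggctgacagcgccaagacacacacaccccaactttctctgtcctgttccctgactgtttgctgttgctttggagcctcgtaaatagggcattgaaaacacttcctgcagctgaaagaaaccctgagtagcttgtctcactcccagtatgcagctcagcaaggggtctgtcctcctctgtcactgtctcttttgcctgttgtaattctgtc
Adamts1, chr16:85803114-85803363, minus strand: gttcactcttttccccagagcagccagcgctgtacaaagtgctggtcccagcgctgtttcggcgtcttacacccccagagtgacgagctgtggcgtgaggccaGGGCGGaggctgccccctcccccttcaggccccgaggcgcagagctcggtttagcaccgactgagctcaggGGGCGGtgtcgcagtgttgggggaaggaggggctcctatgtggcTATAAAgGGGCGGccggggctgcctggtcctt
Mmp15, chr8:95352046-95352295, plus strand: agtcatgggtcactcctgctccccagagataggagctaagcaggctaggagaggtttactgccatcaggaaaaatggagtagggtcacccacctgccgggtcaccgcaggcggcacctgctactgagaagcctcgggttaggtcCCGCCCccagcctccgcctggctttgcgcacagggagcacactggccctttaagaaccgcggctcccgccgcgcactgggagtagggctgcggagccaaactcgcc
Adamts1 held 3 GC boxes and a TATA box 32 bases before the start, Timp3 and Mmp15 a GC box each, and Timp4 none of the motifs. Of 32851 promoter entries, 32.7% held a GC box and 12.4% a TATA box in the same window. The CCAAT box (CCAAT, in 33.8% of entries), AP-1 site (TGANTCA, 6.75%), CRE (TGACGTCA, 1.55%), forkhead site (GTAAACA, 3.17%) and nuclear receptor half-site (AGGTCA, 14%) were searched on both strands and had no match in these 4 windows. These are matches of letters in the sequence and not measurements of binding.

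Timp3, the matrix-bound inhibitor, was the member that rose with exercise. Before exercise it was 30.4, 37.9, 36.7 and 37.4 FPKM in CON-pre and 38.1, 42.1, 38.4 and 42.5 FPKM in HFD-pre. After exercise it was 49.3, 38.3, 40.0 and 55.5 FPKM in CON-post and 50.3, 62.2, 62.2 and 63.4 FPKM in HFD-post. Within each diet no post-exercise library overlapped the pre-exercise libraries, but CON-post replicates 2 and 3 lay close to them. Averaged over both diets, the log2 fold change was 0.45 (standard error 0.08, 95% interval 0.28 to 0.62; limma adjusted p = 0.00387), a 1.37-fold rise from 37.9 ± 3.73 to 52.6 ± 9.92 FPKM (SD, n = 8 per state). Of all genes tested, 3.86% were called in this contrast, and Timp3 was 1 of 9 members called. An unadjusted p under 0.05 was found for 3 members (Timp3, Adamts1 and Mmp15) and for 18.5% of genes. For 0 members were the 8 post-exercise libraries clear of the 8 pre-exercise libraries, as they were for 0.764% of genes.

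Taken by diet, the rise of Timp3 was called in HFD mice and not in CON mice. In HFD-post against HFD-pre it amounted to 0.55 on the log2 scale (95% interval 0.31 to 0.79, limma adjusted p = 0.0347). In this contrast 0.542% of genes were called, 11.7% had an unadjusted p under 0.05 and 6.81% did not overlap, and Timp3 was the 1 member in each count. This call was lost without any of HFD-pre replicates 1 to 4, HFD-post replicates 2 to 4 or CON-pre replicate 3 (adjusted p between 0.0512 and 0.137), and under upper-quartile, median-of-ratios or quantile scaling (0.0834, 0.0854 and 0.111). In CON-post against CON-pre it was 0.35 (standard error 0.11, adjusted p = 0.199), where 1.11% of genes were called and 5.82% did not overlap. There 0 members were called, and 3 (Timp3, Adamts1 and Mmp15) had an unadjusted p under 0.05, as did 11.1% of genes. The difference between the responses was 0.21 on the log2 scale (95% interval -0.13 to 0.54, limma adjusted p = 1.00 after rounding, unadjusted p = 0.217), so the responses of the diets were not shown to differ.

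A few markers of vessel cells were also called for exercise averaged over diets. Of 10 endothelial markers 1 was called, the adhesion molecule Pecam1, which rose from 16.4 ± 1.49 to 21.2 ± 1.29 FPKM (SD, n = 8; log2 fold change 0.36, limma adjusted p = 0.00141). Of 10 smooth muscle and pericyte markers 2 were called: the potassium channel Kcnj8 (log2 fold change 0.48, adjusted p = 0.00340) and the actin-binding Tagln (0.43, adjusted p = 0.0215). Of the endothelial markers 7 of 10 were higher (median log2 fold change 0.08, beside 0.01 over all genes tested), and of the smooth muscle and pericyte markers 8 of 10 (median 0.15). The summed endothelial markers were between 69.0 and 93.6 FPKM before and between 77.2 and 105 FPKM after exercise, and the summed smooth muscle and pericyte markers between 125 and 142 and between 134 and 157 FPKM. No marker of any of these lists was at 0 in every library. Of the adipocyte markers 9 of 10 were higher after exercise (median log2 fold change 0.26), with 0 called, and their sum was between 336 and 491 FPKM before and between 352 and 679 FPKM after. In HFD-post against HFD-pre, where Timp3 was also called, 10 of 10 adipocyte markers were higher (median 0.40, 0 called), and Pecam1 (0.39, limma adjusted p = 0.0347) and Kcnj8 (0.65, adjusted p = 0.0198) were called. Among the skeletal muscle markers, for exercise averaged over diets, the myosin light chain Myl1 fell (log2 fold change -0.31, limma adjusted p = 0.00948) and desmin (Des) rose (0.23, adjusted p = 0.0322). Of the macrophage markers 8 were tested and 0 called. Their lowest p was that of the endotoxin co-receptor Cd14, also for exercise averaged over diets (0.56, limma adjusted p = 0.0561). Within groups, Timp3 did not climb with the summed endothelial markers: the correlation of deviations from the group means over the 16 libraries was r = -0.562 (permutation p = 0.0971, adjusted p = 0.187) and rho = -0.559 (permutation p = 0.0706, adjusted p = 0.134), and r was -0.462 without CON-post replicates 1 and 3. No such correlation was computed with the smooth muscle and pericyte markers or with the adipocyte markers. The part of the other cells in the Timp3 result was not tested.

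Adamts1 and Mmp15 had exercise effects of opposite sign, and neither passed the threshold. Adamts1, which cuts versican, was 8.78, 14.5, 7.51 and 13.3 FPKM in CON-pre and 14.1, 25.4, 17.9 and 13.2 FPKM in CON-post. In HFD mice it was 9.76, 9.11, 8.48 and 10.3 FPKM before and 9.85, 11.7, 15.4 and 11.4 FPKM after exercise. CON-post replicate 2 stood well above every other library, and the ranges overlapped in both diets. The averaged log2 fold change was 0.49 (95% interval 0.18 to 0.81, limma adjusted p = 0.0771), 0.40 without CON-post replicate 2, and called only with array weights among 26 alternatives (0.58, adjusted p = 0.0246). After exercise Adamts1 was lower in HFD than in CON mice by a log2 fold change of -0.50 (95% interval -0.95 to -0.06), with an adjusted p of 0.720 in the limma fit, and by -0.32 without CON-post replicate 2.

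Mmp15, a membrane-anchored protease, was 4.75, 4.25, 4.35 and 3.95 FPKM in CON-pre and 2.41, 3.73, 3.44 and 3.32 FPKM in CON-post, so these groups did not overlap. In HFD mice it was 5.01, 4.23, 3.55 and 4.09 FPKM before and 2.56, 3.86, 3.63 and 3.78 FPKM after exercise, with overlap. The averaged log2 fold change was -0.32 (95% interval -0.52 to -0.12, limma adjusted p = 0.0719), and Mmp15 was called in 3 of 26 alternatives, namely with libraries rescaled to their upper quartile (adjusted p = 0.0209), by median of ratios (0.0241) or by quantiles (0.0192).

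**Figure D2:**
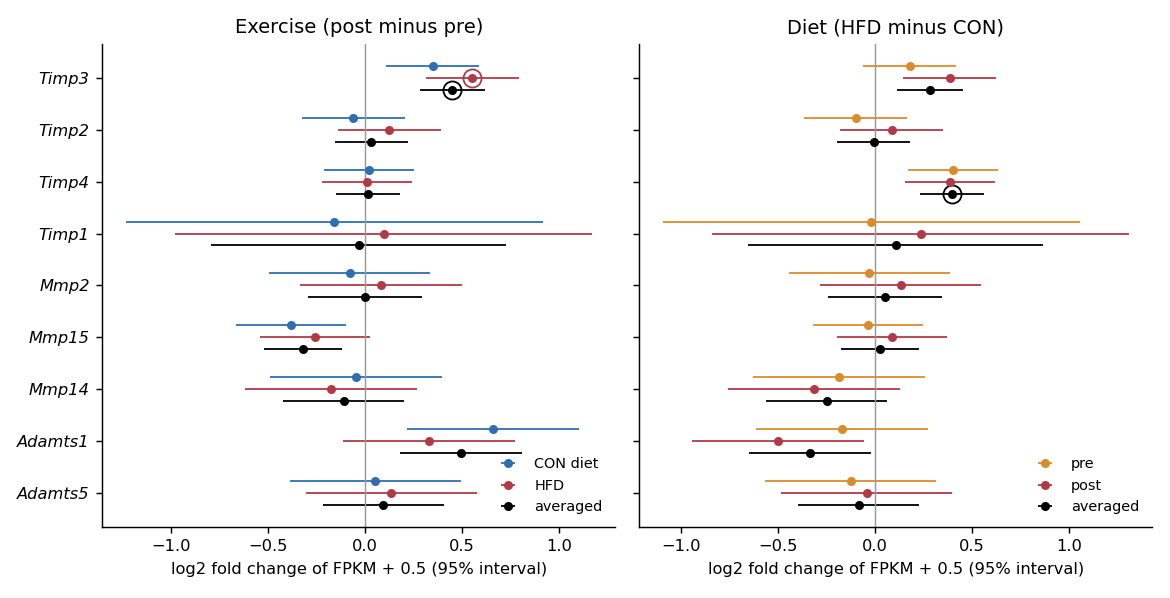
Log2 fold changes of FPKM + 0.5 (points) with 95% intervals (lines) for exercise on the left and diet on the right, by diet or exercise state and averaged. Circled points were called at an adjusted p under 0.05: Timp3 for exercise (0.55 in HFD mice and 0.45 averaged) and Timp4 for diet (0.40 averaged).

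Timp4, an inhibitor known from muscle, heart and fat, differed with diet and not detectably with exercise. In CON mice it was 16.1, 16.5, 17.5 and 20.6 FPKM before exercise and 17.2, 17.9, 17.8 and 18.4 FPKM after. In HFD mice it was 26.7, 22.8, 18.7 and 26.4 FPKM before and 22.2, 21.3, 23.7 and 27.3 FPKM after. The post-exercise groups did not overlap, while HFD-pre replicate 3 was below CON-pre replicate 4. Averaged over exercise states, Timp4 rose 1.32-fold on HFD, from 17.8 ± 1.38 to 23.6 ± 3.01 FPKM (SD, n = 8 per diet), a log2 fold change of 0.40 (standard error 0.08, 95% interval 0.23 to 0.56; limma adjusted p = 0.0180). In this contrast 0.959% of genes were called, and Timp4 was 1 of 9 members called. An unadjusted p under 0.05 was found for 3 members (Timp3, Timp4 and Adamts1) and for 10.4% of genes. For 0 members were the 8 HFD libraries clear of the 8 CON libraries, as they were for 0.391% of genes. The averaged exercise effect on Timp4 was 0.01 (95% interval -0.15 to 0.18, adjusted p = 0.946).

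Within a single exercise state the diet difference of Timp4 was of similar size but not called by limma: 0.40 in HFD-pre against CON-pre (adjusted p = 0.193) and 0.39 in HFD-post against CON-post (adjusted p = 0.301). In these contrasts 0.346 and 0.151% of genes were called, 5.62 and 3.16% did not overlap, and 0 members were called. An unadjusted p under 0.05 was found for 1 member (Timp4) and 8.25% of genes before exercise, and for 3 members (Timp3, Timp4 and Adamts1) and 6.29% of genes after.

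The gene whose level followed that of Timp4 most closely over the 16 libraries was the adipocyte hormone leptin (Lep, Pearson r = 0.891 on log2 values), followed by Dhrs4 (0.850) and Cluh (0.842). Timp4 and Lep were both called for diet averaged over exercise states, so this likeness includes the diet contrast. Of 10 adipocyte markers tested over diet, Lep rose from 0.573 ± 0.331 to 6.49 ± 4.89 FPKM (SD, n = 8; limma adjusted p = 2.43e-04) and complement factor D (Cfd) fell from 110 ± 26.3 to 32.7 ± 11.3 FPKM (adjusted p = 1.75e-04), while the other 8 were not called. Of the 10 adipocyte markers 6 were higher on HFD (median log2 fold change 0.14), and 4 had an unadjusted p under 0.05. The summed adipocyte markers, mostly Fabp4 (mean 329 FPKM), were between 383 and 579 FPKM in CON and between 336 and 679 FPKM in HFD libraries. The part of the adipocyte markers in the Timp4 difference was not tested. The summed skeletal muscle markers were between 52590 and 63930 FPKM in CON and between 48930 and 56980 FPKM in HFD libraries. Of these 10 markers 3 were higher on HFD (median log2 fold change -0.14), 0 were called and 7 had an unadjusted p under 0.05. Averaged over exercise states, 6 of 7 tendon markers (median log2 fold change 0.29), 9 of 10 smooth muscle and pericyte markers (median 0.12) and 7 of 10 endothelial markers (median 0.10) were higher on HFD, and 0 of 8 macrophage markers (median -0.22), beside a median of -0.02 over all genes tested. None of these 4 lists held a gene called by limma for diet averaged over exercise states, and an unadjusted p under 0.05 was found for 1 smooth muscle and pericyte marker and 1 endothelial marker. In HFD-pre against CON-pre 10 of 10 endothelial markers were higher (median 0.17). The part of these cells in the Timp4 difference was not tested either.

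Timp3 was also higher on HFD, without reaching the threshold. Its averaged diet difference was 0.28 on the log2 scale (95% interval 0.11 to 0.45, limma adjusted p = 0.142), and it was called only without CON-post replicate 4 among 26 alternatives (adjusted p = 0.0457). In HFD-pre each library lay above each CON-pre library, by a log2 fold change of 0.18 (adjusted p = 0.745), which was 0.11 without CON-pre replicate 1. HFD-post against CON-post gave 0.39 (adjusted p = 0.328), with overlap.

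The summed inhibitor transcripts were highest in HFD-post. The summed TIMPs were 93.8 ± 4.24 FPKM in CON-pre, 102 ± 7.89 in HFD-pre, 103 ± 5.04 in CON-post and 125 ± 12.9 in HFD-post (SD, n = 4). Timp3 made up 37.9 ± 3.21% of this sum in CON-pre, 39.7 ± 2.96% in HFD-pre, 44.5 ± 7.48% in CON-post and 47.8 ± 1.87% in HFD-post. Timp2 had the highest mean of the 9 genes in CON-pre, and Timp3 in the other 3 groups. The summed FPKM of the 5 proteases was 37.8 ± 0.842 in CON-pre, 35.1 ± 4.38 in HFD-pre, 43.3 ± 13.5 in CON-post and 37.5 ± 2.87 in HFD-post, and CON-post replicate 2 was the highest library at 60.8 FPKM. Because the members were chosen with results known, these sums are given as a description, with no test.

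**Figure D3:**
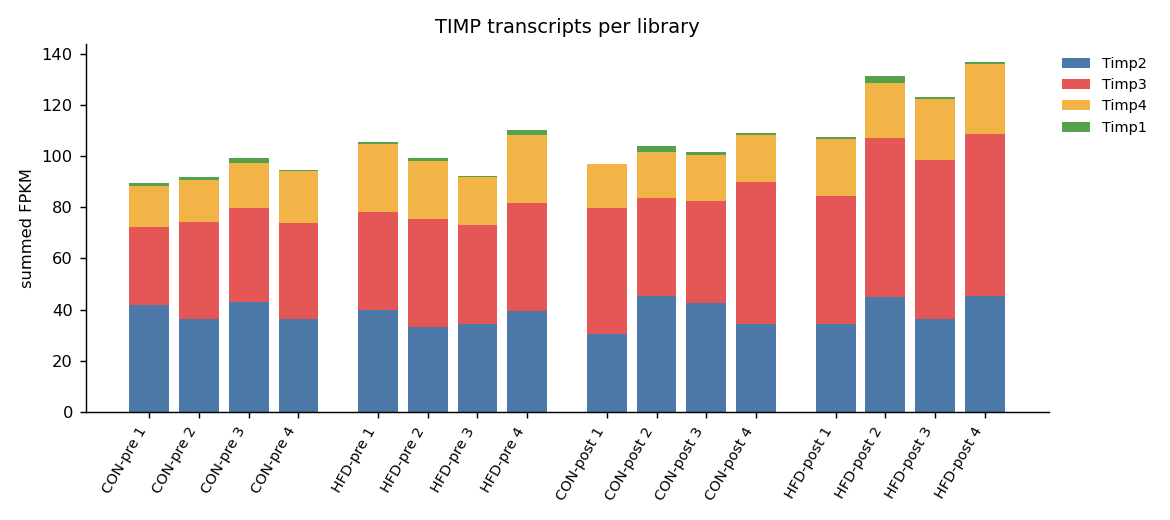
FPKM of the 4 TIMPs stacked for each library (vertical axis from 0), with the libraries ordered by group. The stacks are between 89.5 and 99.4 FPKM in CON-pre and between 107 and 137 FPKM in HFD-post, and Timp1 is barely visible.

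The gelatinase pathway of Mmp2, Mmp14 and Timp2 gave no call in any of the 7 contrasts. Mmp2 was 16.1 ± 2.80 FPKM in CON-pre, 15.7 ± 2.02 in HFD-pre, 15.8 ± 5.47 in CON-post and 16.6 ± 0.934 in HFD-post (SD, n = 4), and its averaged exercise effect had a 95% interval of -0.30 to 0.29 on the log2 scale. Timp2 was 39.4 ± 3.67, 36.7 ± 3.35, 38.0 ± 6.95 and 40.2 ± 5.75 FPKM in the same groups, with an interval of -0.16 to 0.22. Mmp14, the activator of pro-MMP2, was 3.84 ± 0.558, 3.42 ± 1.21, 3.84 ± 1.42 and 2.88 ± 0.420 FPKM, with an interval of -0.42 to 0.20. For diet, the averaged intervals were -0.24 to 0.35 for Mmp2, -0.19 to 0.18 for Timp2 and -0.56 to 0.06 for Mmp14.

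Adamts5 and Timp1 were low and variable. Adamts5, the main aggrecan-cutting enzyme, was 2.52 ± 0.250 FPKM in CON-pre, 2.31 ± 0.571 in HFD-pre, 2.76 ± 1.05 in CON-post and 2.58 ± 0.597 in HFD-post (SD, n = 4). Timp1, the inhibitor best known for its induction in inflamed tissue, was listed at 0 in CON-post replicate 1 and reached 2.68 FPKM in CON-post replicate 2 and 2.95 FPKM in HFD-post replicate 2. Its averaged exercise effect had a 95% interval of -0.79 to 0.73 on the log2 scale, the widest of the 9 genes. Neither gene was called in any contrast. The interaction of diet and exercise was called by limma for 0 members (0 with an unadjusted p under 0.05) and 0.00% of genes, while 356 genes (3.16%) had an unadjusted p under 0.05.

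Several of these genes varied together between libraries of a same group. Deviations of log2 values from the group means were correlated over the 16 libraries, with p from 100000 permutations within groups and adjustment over 54 relations. Of 36 pairs of members, 8 had an adjusted p under 0.05 for Pearson's r and 5 also for Spearman's rho. The share of pairs of other genes that would pass was not computed, so this count is not shown to be particular to these genes. Mmp2 and Timp2 had r = 0.820 (permutation p = 2.20e-04, adjusted p = 0.00594) and rho = 0.779 (permutation p = 0.00110, adjusted p = 0.0148), and r was 0.712 without CON-post replicates 1 and 2, the libraries farthest from the median of Mmp2. Mmp14 and Timp2 had r = 0.789 (permutation p = 0.00112, adjusted p = 0.0121) and rho = 0.735 (permutation p = 0.00758, adjusted p = 0.0421), and r was 0.806 without HFD-pre replicate 1 and CON-post replicate 2. Timp3 was in none of the 8 pairs, and neither was Timp4.

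Each member was also compared with the summed FPKM of 10 fibroblast markers and with that of 10 endothelial markers, in the same 54 relations. Most of the fibroblast sum was gelsolin (Gsn, mean 374.5 FPKM) and decorin (Dcn, 295.2 FPKM). Markers such as Pdgfra (5.38 FPKM) and Dpt (36.5 FPKM) added little, so the correlations below mainly follow Gsn and Dcn. The fibroblast sum ranged from 700.0 FPKM (HFD-pre replicate 2) to 1026 FPKM (CON-post replicate 2). Mmp2, Mmp14, Mmp15, Timp2 and Adamts5 followed it with an adjusted p under 0.05 for both r and rho, Timp1 for r alone, and Timp3, Timp4 and Adamts1 for neither. The share of all genes tested that would follow the fibroblast sum was not computed, so this is not shown to be particular to these members. Without CON-post replicate 1 and HFD-post replicate 1, the libraries farthest from the median of the fibroblast sum, r went from 0.740 to 0.452 for Mmp15, from 0.809 to 0.654 for Adamts5, from 0.714 to 0.696 for Mmp14 and from 0.710 to 0.544 for Timp1. Timp2 had r = 0.934 with it (permutation p = 1e-05, the smallest that these permutations can give, adjusted p = 5.40e-04) and rho = 0.938 (permutation p = 2.00e-05, adjusted p = 0.00108), and r = 0.901 without CON-post replicate 1 and HFD-post replicate 1. Mmp2 had r = 0.817 (permutation p = 8.40e-04, adjusted p = 0.0113) and rho = 0.797 (permutation p = 0.00399, adjusted p = 0.0359), and r = 0.879 without the same libraries. Timp3 had r = -0.302 (permutation p = 0.424, adjusted p = 0.508) and rho = -0.341 (permutation p = 0.316, adjusted p = 0.475), and r = -0.598 without them. Timp4 had r = 0.239 (permutation p = 0.273, adjusted p = 0.399) and rho = 0.256 (permutation p = 0.306, adjusted p = 0.471), and r = 0.167 without them. With the endothelial sum, Mmp2 had r = 0.804 (permutation p = 0.00421, adjusted p = 0.0253) and rho = 0.906 (permutation p = 4.60e-04, adjusted p = 0.00828), and r = 0.769 without CON-post replicates 1 and 3. Timp2 had r = 0.771 (permutation p = 0.00511, adjusted p = 0.0276) and rho = 0.621 (permutation p = 0.0192, adjusted p = 0.0740), and r = 0.691 without the same libraries, while the other 7 members had an adjusted p above 0.05 for both measures. The fibroblast markers themselves gave 0 calls by limma in any contrast, and the lowest p was that of gelsolin (Gsn, exercise averaged over diets, log2 fold change 0.24, adjusted p = 0.108). The fibroblast sum was between 700.0 and 866 FPKM before and between 719 and 1026 FPKM after exercise. Of 7 tendon markers tested 0 were called (lowest p Scx in HFD-pre against CON-pre, -0.59, adjusted p = 0.589), while 5 of the 7 were higher in that contrast (median log2 fold change 0.23).

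**Figure D4:**
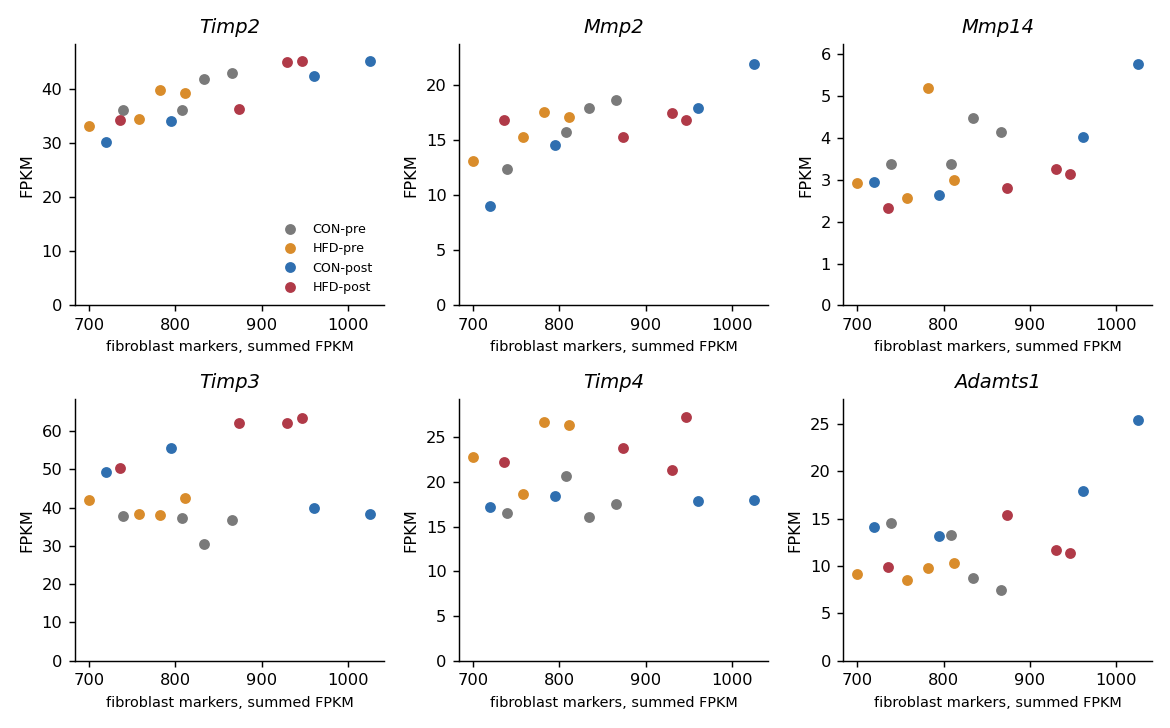
FPKM of 6 of the genes (vertical axes from 0) against the summed FPKM of 10 fibroblast markers (mostly Gsn and Dcn), with a point for each of the 16 libraries, coloured by group. Timp2 and Mmp2 climb with the marker level from the lowest (700.0 FPKM) to the highest library (1026 FPKM), while the Timp3 points do not follow it.

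The nearest genes by Pearson r of log2 values over the 16 libraries differed between the members. Mmp2 was closest to the collagen VI chain Col6a1 (r = 0.919) and the matrix protein Sparc (0.878). Timp2 was closest to the phospholipid transfer protein Pltp (0.945), Gnb1 (0.937) and Tmsb4x (0.928), Timp1 to the chemokine receptor Ccr2 (0.932) and periostin (Postn, 0.911), and Adamts5 to Pak2 (0.919) and Carhsp1 (0.877). Mmp14 was closest to Zbtb40 (0.910) and to the ribosomal RNA precursor Rn45s (0.883), which polyA selection is meant to remove. Mmp15 was closest to Extl3 (0.930) and Dusp3 (0.914), Timp3 to Prickle3 (0.896) and Rell1 (0.886), and Adamts1 to Asb5 (0.852) and Nt5dc3 (0.833). These are the highest of 11255 correlations for each gene and carry no p.

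Among the other proteases, Adamts9 rose with exercise. Of 17 other ADAMTS proteases 4 were tested. Adamts9, a versican-cutting enzyme, passed the limma test on either diet. CON mice had 0.739 ± 0.117 FPKM at rest and 1.45 ± 0.111 FPKM after running (SD, n = 4; log2 fold change 0.66, adjusted p = 0.0125). HFD mice had 0.627 ± 0.112 FPKM at rest and 1.57 ± 0.343 FPKM after running (0.86, limma adjusted p = 0.00470). None of the 6 other MMPs, 6 ADAM sheddases or 21 matrix substrates tested was called by limma in any of the 7 contrasts. The lowest unadjusted p in these lists belonged to Mmp28 (0.0385, HFD-pre against CON-pre), Adam15 (0.0456, exercise averaged over diets) and Thbs1 (0.00775, exercise averaged over diets). For exercise averaged over diets, 11 of the 21 substrates were higher and their median log2 fold change was 0.04, beside 0.01 over all genes tested.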

How the data were processed

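Expression was analysed from the table of 24487 entries that the authors deposited as FPKM. Per the Methods and labels, the authors prepared stranded mRNA libraries (TruSeq, HiSeq2500), trimmed the reads and checked them with FastQC, aligned them with TopHat to mm9 and estimated FPKM with Cufflinks. FPKM carry no counts, so no count model was used and precision per value is unknown. Loci in the study's gene table overlapped the same gene in GRCm38.p6 for 692 of 692 genes and in mm9 for 114, so GRCm38.p6 positions are given. The 27 entries turned into dates (0.0771% of FPKM) were left out, and 260 symbols in several entries were summed. Every column of values was used (0 left out).

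A gene entered the test where its mean over the 16 libraries reached 0.5 FPKM. The test was limma 3.58.1 (R 4.3.3, mean-variance trend) on log2(FPKM + 0.5), without covariates, for 7 contrasts: the 4 between groups, exercise averaged over diets, diet averaged over exercise states, and the interaction. The code was tested on simulated data. Tables and permutations were made in Python 3.11.15 with scipy 1.17.1 and pandas 2.3.3, and figures with matplotlib 3.10.9. As alternatives the pseudocount was set to 0.1 or 1, the filter dropped or raised to 1 FPKM, and the libraries rescaled in 3 ways. Further fits used only the groups compared, no trend, array weights, a replicate block, other thresholds (0.1, or unadjusted), and each library left out in turn. Members and lists were chosen with earlier results of these data known. Named genes are the 9 members, called genes of the lists (otherwise the lowest p of a list), and the 3 genes closest to each member, of which the text gives some. One list of related genes is not reported here. Nothing says that replicates share a litter or batch, and p-values measure the spread between these mice.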

Additional observations from a re-analysis of the deposited data

Results flagged for a closer look

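In 36 groups of 4 libraries (9 genes in 4 groups), 4 libraries stood apart from the other 3 by Dixon's criterion (gap over range above 0.829), where chance flags about 1 in 20 groups. Mmp14 was 5.20 FPKM in HFD-pre replicate 1, against 2.55 to 2.99 FPKM in the other HFD-pre libraries. Timp1 was 2.95 FPKM in HFD-post replicate 2, against 0.517 to 0.875 FPKM in the others. Timp3 was 30.4 FPKM in CON-pre replicate 1, against 36.7 to 37.9 FPKM in the others. Without that library its log2 fold change was 0.27 in CON-post against CON-pre (limma adjusted p = 0.513) and 0.11 in HFD-pre against CON-pre (adjusted p = 0.942). Timp3 was also low in HFD-post replicate 1, at 50.3 FPKM against 62.2 to 63.4 FPKM, and its HFD-post against HFD-pre log2 fold change was 0.63 (limma adjusted p = 0.0181) without that library.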

How the results depend on the processing

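The exercise-averaged rise of Timp3 (log2 fold change 0.39 to 0.49, limma adjusted p 0.00151 to 0.0146) and the diet-averaged rise of Timp4 (0.36 to 0.45, adjusted p 0.00281 to 0.0492) were called in all 26 alternatives fitted. The HFD-post against HFD-pre call of Timp3 was kept in 14 of 27, and the number of members called there was 0 with no filter, under upper-quartile, median-of-ratios or quantile scaling and with no mean-variance trend, and ranged from 0 to 1 over the fits that leave out a library. For exercise averaged over diets, each of the 3 scalings and the array weights gave 2 members called. The laxer thresholds gave 3, both for an adjusted p of 0.1 and for an unadjusted p of 0.05. For diet averaged over exercise states, the number was between 1 and 2 with each library left out, and 3 at an unadjusted p. An unadjusted p gave 1 member in HFD-pre against CON-pre, 3 in CON-post against CON-pre and 3 in HFD-post against CON-post. Over all genes, exercise averaged over diets gave 332 higher and 103 lower calls, against 262 and 275 under upper-quartile, 308 and 180 under median-of-ratios and 289 and 244 under quantile scaling. HFD-post against HFD-pre gave 55 higher and 6 lower calls, against 18 and 3 when replicate 2 of either group was left out. The exercise average gave 203 and 43 without CON-pre replicate 1. HFD-pre against CON-pre gave 27 and 12, against 13 and 8 without CON-pre replicate 1, and HFD-post against CON-post 14 and 3, against 5 and 0 without CON-post replicate 2. Calls also fell by over 1.5 times without HFD-pre replicates 1 or 2 (exercise average), without CON-pre replicate 2 or HFD-pre replicates 1, 3 or 4 (HFD-pre against CON-pre), without HFD-pre replicates 1 or 3 or HFD-post replicates 3 or 4 (HFD-post against HFD-pre), and without CON-post replicates 1 or 3 or HFD-post replicates 1 or 4 (HFD-post against CON-post). Of the 60 results not called, 32 changed sign in some alternative. With the replicate number as a block, no call among the members changed (0 or 1 called in each contrast, as without it; Timp3 in HFD mice, adjusted p = 0.0477). Over all genes, the exercise average gave 262 higher and 66 lower calls with this block. Same-numbered libraries did not deviate together over all genes tested (correlations of -0.220 to 0.213 in 24 pairs). This correlation does not test for a batch or litter that affects only some genes. FPKM give no read numbers, so for Timp1 and Adamts5 counting error cannot be set apart from variation between mice.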
